A study of Caenorhabditis briggsae with 16 samples.

Results

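The Mir-2 hairpins of *Caenorhabditis briggsae*, a nematode related to *C. elegans*, were examined at 16 hourly time points after larvae were plated. Members were chosen by name: every arm whose name starts with Cbr-Mir-2- was taken, which gave 6 of the 372 arms in the count table. They form 3 hairpins, Cbr-Mir-2-o3, Cbr-Mir-2-o4 and Cbr-Mir-2-P11, each with a 3p arm and a 5p arm that carries an asterisk. All 6 passed the filter on low counts (at least 10 counts in at least 8 libraries), as did 311 arms in all. Wild-type animals of strain AF16 were synchronized as L1 larvae, plated without further treatment and kept at 25°C. Whole animals were collected every hour from 18 to 33 h, and small RNAs were sequenced in 1 library per hour, so there were 16 libraries and no replicates. An interval given for a single hour is an exact 95% interval and covers counting error only. Since whole animals were sequenced, a lower level from fewer cells that make a miRNA and one from less of it per cell cannot be told apart.

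A miRNA hairpin is cut into a short duplex of its 5p and 3p arms. The guide is bound by an Argonaute protein and pairs with target mRNAs through its seed, a short stretch near its 5′ end, whereas the passenger is usually discarded. The miR-2 family is found in invertebrates. In *Drosophila*, miR-2 and its relatives pair through their shared seed with a short motif in 3′ UTRs called the K box and repress pro-apoptotic genes. Which mRNAs the *C. briggsae* arms target was not measured. The hairpins compared here were grouped by name and not by sequence.

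Levels are normalized counts: each count was scaled so that its library matches the mean library size. The library totals, summed over the counts of all arms, were 9588599 (32 h) to 15866144 (19 h), with a median of 12305010. The guide was taken as the arm with the higher mean normalized count, which was the 3p arm in all 3 Mir-2 hairpins and in each of the 16 libraries. Counts were not scaled for the length of an arm, and ligation can favour some sequences over others, so levels of different arms are compared in reads and not in molecules. No other row of the table lay within 0.1 (log2) of a Mir-2 arm in every library. The library of 21 h lay farthest from its neighbours, with a median gap of 0.26 (log2) over the tested arms, compared with 0.084 to 0.17 for the other hours from 19 to 32 h.

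A rising guide-to-passenger ratio was called in all 3 hairpins, compared with 44 of 127 hairpins (34.6%). In Cbr-Mir-2-o4 the ratio also swung, with 13.8 at 22 h, 2.06 at 25 h and 16.4 at 29 h. Its call depended on the model and on the hours that entered the fit. The arms behind the ratio moved in 3 different ways. In Cbr-Mir-2-o3 both arms fell and the passenger fell faster. In Cbr-Mir-2-o4 both arms fell, and the passenger was high around 19 and 25 h and low at 22 h and from 28 h on. In Cbr-Mir-2-P11 the guide rose, and no trend of the passenger was called. A guide without a called trend beside a falling passenger was found in 0 of the 3 Mir-2 hairpins. It was rare in the table, with 10 of 127 hairpins (7.87%), so this count is near the background.

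**Figure D1:**
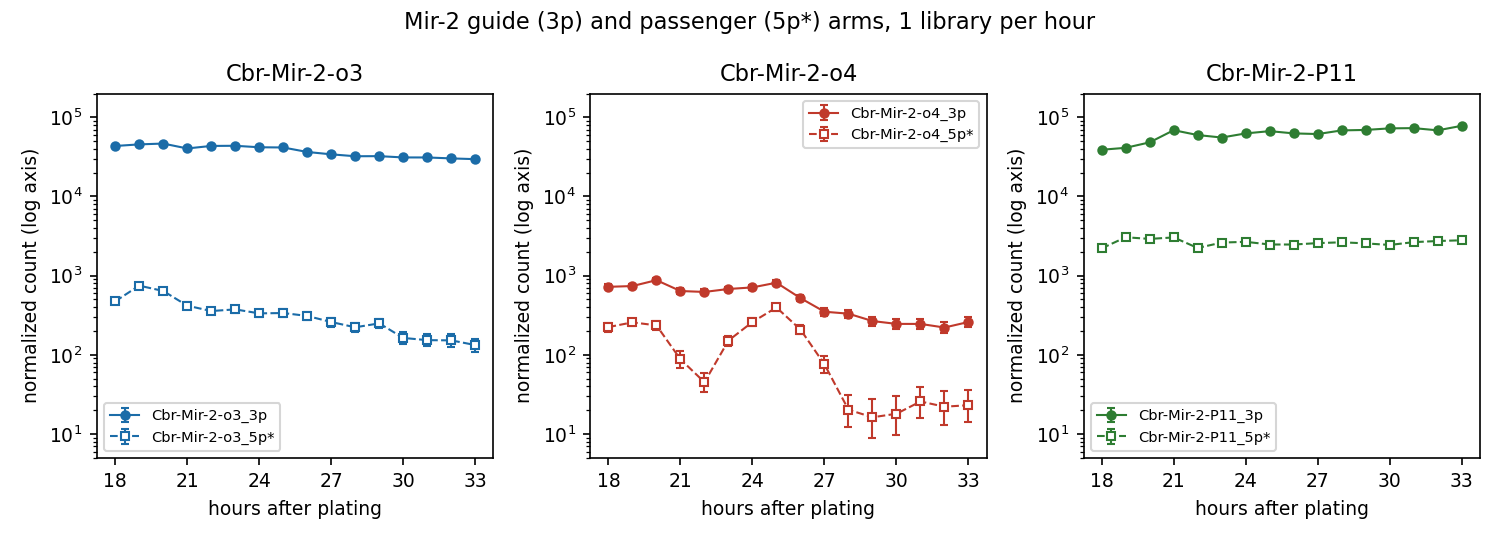
Normalized count (log axis) of the guide (3p, filled) and passenger (5p*, open) arm of each Mir-2 hairpin against hours after plating, 1 library per hour; bars are exact 95% intervals of counting error. Cbr-Mir-2-o4_5p* drops to 45.1 at 22 h, climbs to 396 at 25 h and stays at or below 25.7 from 28 h on, while Cbr-Mir-2-P11_5p* stays between 2214 and 3056.

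The guides Cbr-Mir-2-P11_3p and Cbr-Mir-2-o3_3p were among the more abundant arms of the table, ranked 32 and 49 of 372 by mean normalized count. Their means were 62270 and 37759. Cbr-Mir-2-P11_5p* followed with a mean of 2632 and rank 127. Cbr-Mir-2-o4_3p (516, rank 182), Cbr-Mir-2-o3_5p* (333, rank 197) and Cbr-Mir-2-o4_5p* (129, rank 241) were lower. The passenger of P11 was therefore read more often than the guide of o4, and this held in 16 of 16 libraries. The order of the 2 leading guides changed once: Cbr-Mir-2-o3_3p was above Cbr-Mir-2-P11_3p at 18 and 19 h and below it in the other 14 libraries. Among the 3 lowest arms, Cbr-Mir-2-o3_5p* was above Cbr-Mir-2-o4_3p only at 19 h, and Cbr-Mir-2-o4_5p* was above Cbr-Mir-2-o3_5p* only at 25 h.

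Each arm was fitted with edgeR's quasi-likelihood model as a straight line in time plus a wave of 7 h, and the slope of the line, in log2 per h, was tested at a threshold of 0.05 after Benjamini-Hochberg adjustment over 311 arms. Of the 6 Mir-2 arms, 4 fell, against 129 of 311 tested arms (41.5%), and 1 rose, against 84 of 311 (27.0%). The balance over all arms depended on the scaling, with 115 falling and 101 rising with TMM factors and 108 falling and 110 rising with median-of-ratios size factors, whereas 4 Mir-2 arms fell and 1 rose under both. The median slope was -0.029 over all tested arms, -0.0069 over the guides and -0.025 over the passengers of the 127 hairpins with both arms tested. Of these 127 guides, 52 fell and 40 rose, and of the 127 passengers, 51 fell and 35 rose. The p-values treat the hours as independent, which was not tested.

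Cbr-Mir-2-o3_3p, the guide of o3, had 43450 normalized counts at 18 h, reached its highest value of 46638 at 20 h, and was between 40442 and 43717 from 21 to 25 h. It then went from 36517 at 26 h to 29629 at 33 h, its lowest value. The level at 18 h was 1.47-fold that at 33 h (1.44 to 1.49). The slope was -0.049 ± 0.0053 (SE, n = 16 libraries), and the edgeR adjusted p was 1.8e-06. With median-of-ratios size factors the slope was -0.026 (edgeR adjusted p 0.00085), beside a median arm that fell by less. The change took place mainly in the second part of the course, and every library from 26 h on lay below every library before it.

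Cbr-Mir-2-o3_5p*, the passenger of o3, had 474 normalized counts at 18 h, 748 at 19 h, its highest value, and 641 at 20 h. It was 418 at 21 h, 334 to 375 from 22 to 25 h and 310 at 26 h. It went on to 260, 223 and 250 at 27, 28 and 29 h, and to 164, 153, 152 and 133 from 30 to 33 h. After the rise from 18 to 19 h (1.58-fold, 1.42 to 1.76), the largest steps down were from 20 to 21 h (1.53-fold, 1.35 to 1.75) and from 29 to 30 h (1.53-fold, 1.22 to 1.92). The slope was -0.15 ± 0.013 (SE, n = 16 libraries), and the edgeR adjusted p was 1.7e-07. The passenger thus lost 3.57-fold from 18 to 33 h (2.91 to 4.40), more than the guide of the same hairpin.

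Cbr-Mir-2-o4_5p*, the passenger of o4, showed the widest range of the 6 arms, with a highest value 24.4-fold the lowest. It had 224, 257 and 236 normalized counts at 18, 19 and 20 h and dropped to 87.9 at 21 h and 45.1 at 22 h. It climbed to 152, 260 and 396 at 23, 24 and 25 h. It dropped again to 209, 75.8 and 20.2 at 26, 27 and 28 h, and was 16.3, 18.0, 25.7, 22.1 and 23.1 from 29 to 33 h. The level at 19 h was 5.70-fold that at 22 h (4.27 to 7.76), the level at 25 h was 8.79-fold that at 22 h (6.60 to 11.9), and the level at 25 h was 24.4-fold that at 29 h (14.3 to 45.0). These 3 steps were larger than counting error allows. After 29 h no further step beyond counting error was seen: 31 h was 1.58-fold 29 h, with an interval of 0.774 to 3.34 that includes 1, on 14 and 22 counts.

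Cbr-Mir-2-o4_3p, the guide of the same hairpin, moved in the same hours by less. It had 723, 739 and 877 normalized counts from 18 to 20 h, 640 and 623 at 21 and 22 h, and 679, 711 and 815 from 23 to 25 h. It was 521 at 26 h, 350 at 27 h and 331 at 28 h, and lay between 221 and 267 from 29 to 33 h. The level at 25 h was 1.31-fold that at 22 h (1.18 to 1.45) and 3.05-fold that at 29 h (2.63 to 3.55). Both arms of o4 fell over the course, with a slope of -0.14 ± 0.019 for the guide (SE, n = 16 libraries, edgeR adjusted p 8.5e-06) and -0.28 ± 0.054 for the passenger (edgeR adjusted p 0.00031). The fall of the passenger rested on the last hours: over 18 to 29 h its slope was -0.14 and its edgeR adjusted p was 0.095.

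Cbr-Mir-2-P11_3p, the guide of P11, was the only Mir-2 arm that rose. It had 38954, 41196 and 48308 normalized counts at 18, 19 and 20 h and stepped up to 68794 at 21 h, the hour whose library stood farthest from its neighbours. It was 59730 and 55567 at 22 and 23 h, 61512 to 66915 from 24 to 27 h and 68386 to 78190 from 28 to 33 h. The slope was 0.051 ± 0.0087 (SE, n = 16 libraries), and the edgeR adjusted p was 0.00012. Without the library of 21 h and without each other library in turn, the slope was 0.044 to 0.056 and was called each time. The level at 33 h was 2.01-fold that at 18 h (1.98 to 2.03).

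Cbr-Mir-2-P11_5p*, the passenger of P11, had its lowest value of 2214 normalized counts at 18 h and its highest of 3056 at 19 h. It was 2913 and 3041 at 20 and 21 h, 2238 at 22 h, and between 2443 and 2799 from 23 to 33 h. Its highest value was 1.38-fold its lowest, the narrowest range of the 6 arms. The slope was 0.0013 ± 0.0083 (SE, n = 16 libraries), and the edgeR adjusted p was 0.89. This slope lay within 1 SE of 0, and its sign depended on the hours that entered the fit. Its size depended on the scaling, with 0.016 ± 0.010 with TMM factors (edgeR adjusted p 0.17) and 0.024 ± 0.010 with median-of-ratios size factors (edgeR adjusted p 0.058), neither of which was called.

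**Figure D2:**
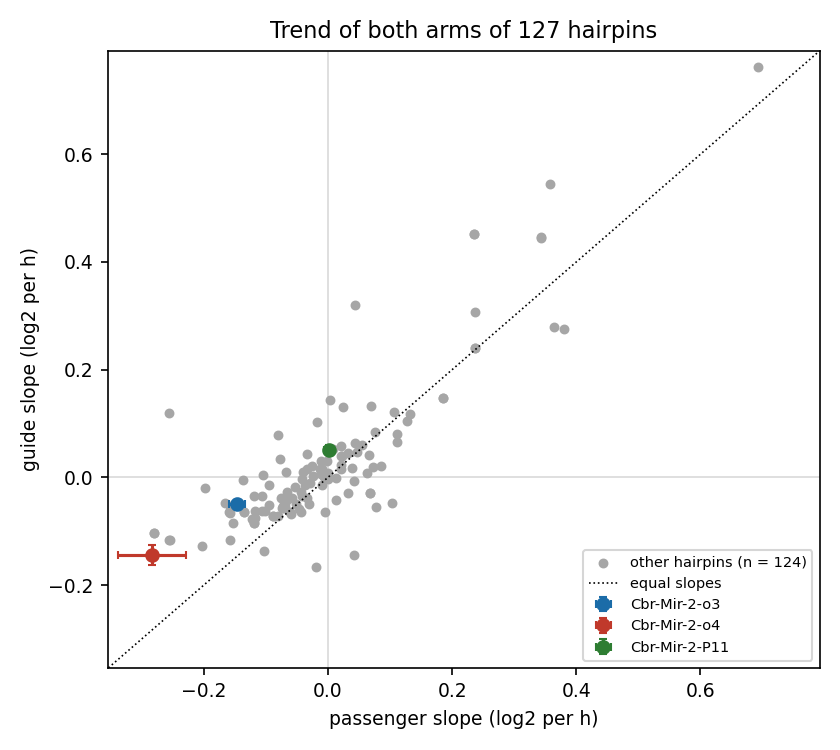
Slope of the guide (vertical axis, log2 per h) against slope of the passenger (horizontal axis, log2 per h) of the same hairpin for 127 hairpins; coloured points are the 3 Mir-2 hairpins with bars of 1 SE, and the dotted line marks equal slopes. All 3 Mir-2 hairpins lie above the line: o3 at -0.15 and -0.049, o4 at -0.28 and -0.14, and P11 at 0.0013 and 0.051 (passenger first).

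The guide-to-passenger ratio was taken within a library and so does not depend on its total. In o3 it was 91.7 at 18 h (84.1 to 100.2), 60.9 at 19 h, its lowest value, and 72.8 and 96.7 at 20 and 21 h. It was between 117 and 125 from 22 to 26 h, and 131, 145 and 129 at 27, 28 and 29 h. It was 190, 203, 199 and 223 from 30 to 33 h, with an interval of 186 to 270 in the last hour. The last 4 hours lay above every other hour.

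In P11 the ratio was 17.6 at 18 h, 13.5 at 19 h, its lowest value, 16.6 at 20 h, 22.6 at 21 h and 26.7 at 22 h. From 23 to 33 h it lay between 21.2 and 29.7. The ratio of P11 thus changed mainly before 23 h, and its highest value was 2.20-fold its lowest, compared with 3.66-fold in o3 and 7.99-fold in o4.

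In o4 the ratio was 3.22, 2.87 and 3.72 from 18 to 20 h, 7.28 at 21 h and 13.8 at 22 h (10.5 to 18.6). It returned to 4.48, 2.73, 2.06 and 2.50 from 23 to 26 h, with an interval of 1.82 to 2.33 at 25 h. It was 4.62 at 27 h, 16.4 at both 28 and 29 h (9.59 to 30.5 at 29 h), and 13.6, 9.55, 10.0 and 11.3 from 30 to 33 h. The intervals of 22 and 29 h lay apart from those of 19 and 25 h, so the swings of the ratio exceeded counting error. Expressed as a share, the passenger made up 32.7% of the counts of the hairpin at 25 h (30.1 to 35.5%, Clopper-Pearson) and 5.74% at 29 h (3.17 to 9.44%).

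**Figure D3:**
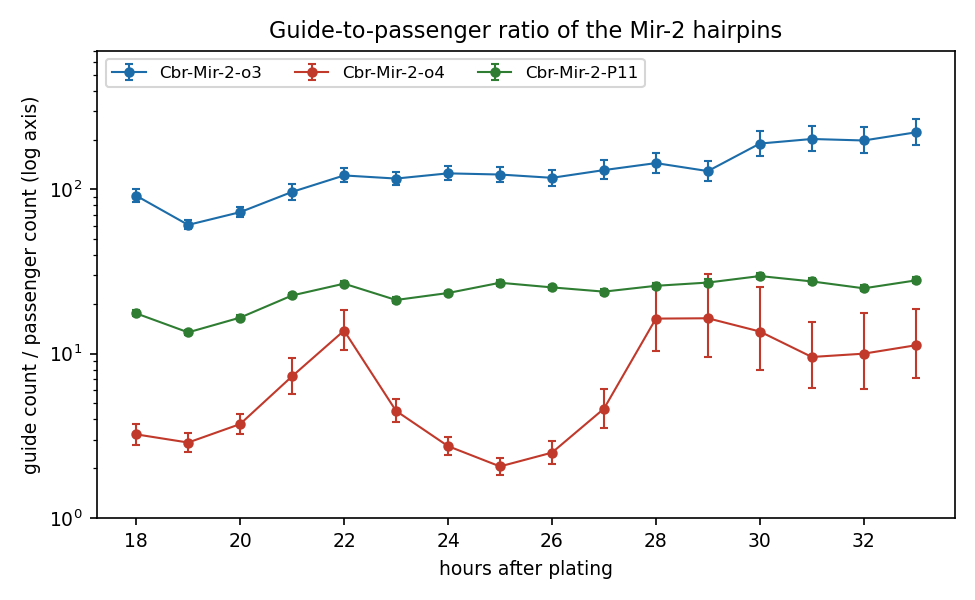
Guide count divided by passenger count (log axis) of the 3 Mir-2 hairpins against hours after plating, 1 library per hour; bars are exact 95% intervals of counting error. The ratio of o3 runs from 60.9 at 19 h to 223 at 33 h, that of P11 from 13.5 at 19 h to 29.7 at 30 h, and that of o4 has high points of 13.8 at 22 h and 16.4 at 28 and 29 h.

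The trend of the ratio was tested with edgeR on the passenger counts, with the log of the guide count as offset, and p-values were adjusted over the 127 hairpins. The slope of the log2 ratio was 0.097 ± 0.012 per h in o3 (SE, n = 16 libraries, edgeR adjusted p 1.1e-05), 0.13 ± 0.036 in o4 (edgeR adjusted p 0.0088) and 0.050 ± 0.011 in P11 (edgeR adjusted p 0.0016). A rising ratio was called in 3 of 3 Mir-2 hairpins, compared with 44 of 127 hairpins (34.6%), and a falling one in 0 of 3, compared with 14 of 127 (11.0%). The median slope over the 127 hairpins was 0.025. By slope, o4 ranked 14, o3 ranked 22 and P11 ranked 38 of 127. The call for o4 depended on the model and the hours: with a linear term alone the edgeR adjusted p was 0.054, and over 18 to 29 h the slope was 0.021 with an edgeR adjusted p of 0.77.

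The 3 hairpins also differed in the level of the ratio. The mean guide level was 113-fold the mean passenger level in o3, 23.7-fold in P11 and 3.99-fold in o4, which ranked 29, 53 and 96 of 127 hairpins, and the median hairpin had 14.3. By a least-squares fit of the difference in log2 ratio against time, the slope of o3 exceeded that of P11 by 0.050 per h, with a 95% interval of 0.028 to 0.072. The difference of o3 minus o4 was -0.027 (-0.13 to 0.077), and that of o4 minus P11 was 0.077 (-0.026 to 0.18). The intervals of both differences with o4 include 0, so the slope of o4 was not shown to differ from either. These fits used a straight line without the 7 h wave, and their intervals treat the hours as independent, which was not tested.

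The first and last 4 hours were compared as a description, since the hours of a window are not replicates. The mean of Cbr-Mir-2-o3_5p* was 570 from 18 to 21 h (range 418 to 748) and 151 from 30 to 33 h (133 to 164), a log2 difference of -1.92. For Cbr-Mir-2-o4_5p* the means were 201 (87.9 to 257) and 22.3 (18.0 to 25.7), a log2 difference of -3.18. The guides of the same hairpins differed by less, with -0.53 for Cbr-Mir-2-o3_3p (44015 and 30545) and -1.61 for Cbr-Mir-2-o4_3p (745 and 243). In these 4 arms the late hours lay wholly below the early hours, which was seen in 111 of 311 tested arms (35.7%). Cbr-Mir-2-P11_5p* (2806 and 2658) and Cbr-Mir-2-P11_3p (49313 and 73077) had overlapping windows, so 0 of 6 arms lay wholly above, compared with 78 of 311 (25.1%). For Cbr-Mir-2-P11_3p the overlap came from the library of 21 h alone (68794), against a lowest late value of 68506 at 32 h. Its values at 18, 19 and 20 h (38954, 41196 and 48308) lay below every late hour. The medians of the log2 difference were -0.31 over all tested arms, -0.052 over the guides and -0.25 over the passengers.

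By the same windows the ratio of o3 went from 80.5 to 204, that of o4 from 4.28 to 11.1 and that of P11 from 17.6 to 27.5. The late hours lay wholly above the early hours in all 3 hairpins, which was seen in 35 of 127 hairpins (27.6%). The log2 differences were 1.34, 1.38 and 0.65, and the median over the 127 hairpins was 0.22.

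Rhythm at 7 h was tested in the same fits. An amplitude is in log2, and its SE is approximate, derived from the F statistic of the joint test of the 7 h wave. Of the 6 Mir-2 arms, 0 passed the threshold in this edgeR fit, against 23 of 311 tested arms (7.40%). The largest amplitude was that of Cbr-Mir-2-o4_5p*, 1.24 ± 0.30 (SE, n = 16 libraries), with an unadjusted edgeR p of 0.0041 and an edgeR adjusted p of 0.053. With DESeq2 the same arm passed (adjusted p 0.0032). It also passed with TMM factors, median-of-ratios size factors, an 8 h period, a quadratic trend or the hours 18 to 29 only. It did not pass at a 6 or 6.5 h period, with limma or without the low-count filter, so its call depends on these choices. The other 5 arms had amplitudes of 0.043 to 0.17 and edgeR adjusted p-values of 0.40 to 0.72. For the ratio, o4 was called, with an amplitude of 0.98 ± 0.21 (edgeR adjusted p 0.014, rank 5 of 127), whereas o3 (0.17, edgeR adjusted p 0.29) and P11 (0.15, edgeR adjusted p 0.29) were not. This is 1 of 3 hairpins, compared with 22 of 127 (17.3%). The call for o4 was lost at a 6 h period (amplitude 0.87, edgeR adjusted p 0.13). Its passenger swung 2 times in the course, and no further peak was seen from 28 to 33 h, on 14 to 22 counts per library.

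The arms most like each Mir-2 passenger over the 16 libraries were sought among 248 arms of other families with a mean count of at least 100, by Pearson's r of log2(normalized count + 8). The points share their libraries and totals, and r is a description. For Cbr-Mir-2-o4_5p* these were 3 passengers: Cbr-Mir-36-o25_5p* (r = 0.98, Spearman's rho = 0.96), Cbr-Mir-9-P15_5p* (r = 0.97, rho = 0.90) and Cbr-Mir-279-o7_5p* (r = 0.94, rho = 0.93). For Cbr-Mir-2-o3_5p* they were 3 arms without an asterisk: a 3p arm that the table places in no named family (r = 0.95, rho = 0.98), Cbr-Mir-7594-P1b_3p (r = 0.95, rho = 0.94) and Cbr-Mir-7591-v2_3p (r = 0.95, rho = 0.97). The row Cbr-Mir-7591-v1_3p had the same r and rho as Cbr-Mir-7591-v2_3p. For Cbr-Mir-2-P11_5p* the likeness was lower, with r of 0.77 for Cbr-Mir-73-P3b_3p (rho = 0.83), 0.68 for Cbr-Mir-9-P14_3p (rho = 0.61) and 0.51 for Cbr-Mir-10-P3n_3p* (rho = 0.50). The 3 passengers most like Cbr-Mir-2-o4_5p* were picked by this r, so a shared course follows from the choice. Cbr-Mir-36-o25_5p* and Cbr-Mir-279-o7_5p* had high points at 19 and 25 h, and Cbr-Mir-9-P15_5p* at 20 h (1235) and 26 h (1216). All 3 were low at 22 h.

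**Figure D4:**
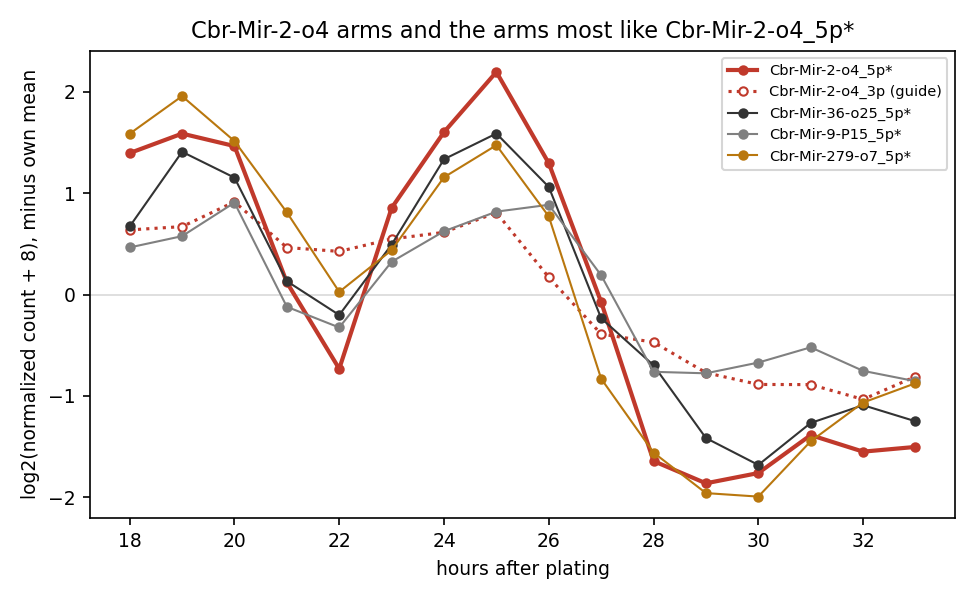
log2(normalized count + 8), minus the mean of each arm over the 16 libraries, against hours after plating for both arms of Cbr-Mir-2-o4 and the 3 arms of other families most like its passenger. All 4 passengers are higher at 25 h than at 22 h and lower from 28 h on than at 25 h, and the guide (dotted) follows with a smaller drop at 22 h.

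The log2 guide-to-passenger ratio was compared in the same way with 124 hairpins of other families. The ratio of o4 was most like those of Cbr-Mir-9-P15 (r = 0.93, rho = 0.88), Cbr-Mir-279-o7 (r = 0.86, rho = 0.86) and Cbr-Mir-279-o8a (r = 0.85, rho = 0.86), of which the first and the second were also among the hairpins of the passengers most like it. Cbr-Mir-279-o7 and Cbr-Mir-279-o8a had nearly equal mean levels of the guide (118427 and 118364) and of the passenger (1470 and 1485). Whether they share reads was not tested. The ratio of o3 was most like those of Cbr-Let-7-P5 (r = 0.93, rho = 0.89), Cbr-Let-7-P7 (r = 0.90, rho = 0.90) and Cbr-Mir-70 (r = 0.89, rho = 0.90). The ratio of P11 was most like those of Cbr-Mir-124-P10 (r = 0.80, rho = 0.67), Cbr-Bantam-P1a (r = 0.77, rho = 0.65) and Cbr-Mir-70 (r = 0.76, rho = 0.75).

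The 3 guides together made up 0.67 to 0.88% of the counts of all arms in each library, and their makeup shifted. At 18 h o3 gave 52.3% of the Mir-2 guide counts (51.9 to 52.6%, Clopper-Pearson) and P11 46.9% (46.5 to 47.2%). At 33 h o3 gave 27.4% (27.1 to 27.7%) and P11 72.3% (72.1 to 72.6%). The guide of o4 gave 0.87% at 18 h (0.81 to 0.93%) and 0.24% at 33 h (0.21 to 0.27%). The Mir-2 guides thus went from nearly equal parts of o3 and P11 to a majority of P11.

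Among the Mir-2 passengers, P11 gave 76.0% at 18 h (74.5 to 77.5%) and 94.7% at 33 h (93.8 to 95.6%). The share of o3 went from 16.3% (15.0 to 17.6%) to 4.50% (3.73 to 5.38%). The share of o4 was 7.70% at 18 h (6.79 to 8.68%), 12.3% at 25 h (11.2 to 13.5%), 0.58% at 29 h (0.32 to 0.96%) and 0.78% at 33 h (0.48 to 1.21%). The share of o4 was thus higher at 25 h than at 18 h, and lower than both at 29 and 33 h.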

How the data were processed

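Per the labels, whole wild-type AF16 animals were collected hourly, and single-end small RNA libraries (Illumina TruSeq kit) were prepared from Tri Reagent extracts. For the deposited counts, the authors trimmed the 3′ adapter and mapped reads with QuasR and Bowtie with multiple hits allowed, and counted sense reads by their start at the arm's 5′ end as annotated. MirGeneDB and a *C. briggsae* assembly appear in the authors' methods, but ce10 in the submitters' processing notes. For the tools, versions were not given in the sources used here. The deposited log2 values were made by the authors from counts scaled to the mean total, with a pseudocount of 8. Recomputed from the counts, 5952 values differed from them by at most 0.0005. The model fitted here to the counts (a linear term with cosine and sine terms at 7 h) follows the one that the authors fitted to log2 values of their *C. elegans* course.

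Group was the hour in the labels. The total count per library was 9588599 to 15866144. Exact 95% intervals (Poisson, Clopper-Pearson) take in counting error alone, as there were no molecular identifiers. Of 372 rows, 371 had a count. The filter (10 counts or more in 8 libraries or more) left 311, which were fitted in R 4.3.3 by glmQLFit of edgeR 4.0.16 and tested by glmQLFTest, with the total count as library size. The ratio of 127 hairpins was tested on passenger counts with log(guide count + 0.5) as offset, with the sign turned so that a positive slope is a rising guide-to-passenger ratio. In 4 of the 127 the more abundant arm carries an asterisk. Adjustment was by Benjamini-Hochberg at 0.05. With 1 library per hour, the spread is that about the fitted curve, and p-values treat the hours as independent. The slope tests of arms and ratios were also run on simulated data with straight-line trends and independent hours. Those data held no 7 h wave, so they do not bear on the rhythm calls. The alternatives were TMM factors, median-of-ratios size factors of DESeq2 1.42.0 in the edgeR fit, and the DESeq2 test with the total count as library size. Others were limma 3.58.1 with a pseudocount of 8 or 1, no low-count filter, other periods and trends, fewer hours and each hour left out. Periods of 6.5 h, and of 6, 6.5 and 8 h for the ratio, were added after seeing the data. Numbers and figures used Python 3.11.15, numpy 2.4.6, scipy 1.17.1, pandas 2.3.3 and matplotlib 3.10.9. All rows named Cbr-Mir-2- are reported. The likeness rule takes, for each Mir-2 passenger and each hairpin ratio, the 3 of other families with the highest r. The members and lists were chosen with earlier results of these data known.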

Additional observations from a re-analysis of the deposited data

How the results depend on the processing

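The slopes of Cbr-Mir-2-o3_5p*, Cbr-Mir-2-o3_3p, Cbr-Mir-2-o4_3p and Cbr-Mir-2-P11_3p and the ratio slopes of o3 and P11 kept their direction and call under every alternative run. Scaling moved the median arm: its fitted change over 15 h was -0.44 (log2) with the total count, -0.21 with TMM factors and -0.11 with median-of-ratios size factors. Beside this, the slope per h of Cbr-Mir-2-o3_3p was -0.049, -0.033 and -0.026, that of Cbr-Mir-2-P11_3p 0.051, 0.066 and 0.073, and that of Cbr-Mir-2-P11_5p* 0.0013, 0.016 and 0.024.

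The 7 h amplitude of Cbr-Mir-2-o4_5p* passed the threshold with TMM factors (1.18), median-of-ratios size factors (1.20), DESeq2 (1.25), a quadratic trend (1.42), 18 to 29 h only (1.42) and, as an amplitude at 8 h, with that period (1.32), so that 1 Mir-2 arm was rhythmic in these settings. It missed the threshold at 6 h (1.07), at 6.5 h (1.18), without the low-count filter (1.24, edgeR adjusted p 0.058) and with limma at a pseudocount of 8 (0.93, adjusted p 0.086) or 1 (1.03, adjusted p 0.094). With each hour left out it was 0.99 to 1.46 (edgeR adjusted p 0.0092 to 0.16), and 0 to 1 Mir-2 arms were rhythmic, 1 without 18, 19 or 32 h. The number of rhythmic arms among all tested was 23 in the report, 39 with DESeq2, 3 at 6 h, 12 at 8 h and 55 with a quadratic trend, and 14 to 29 with each hour left out, with 14 without 22 h.

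Over 18 to 29 h, the slope of Cbr-Mir-2-o4_5p* was -0.14 (edgeR adjusted p 0.095), that of Cbr-Mir-2-P11_5p* -0.010, the ratio slope of o4 0.021 (edgeR adjusted p 0.77), 72 of all arms fell and 76 rose (129 and 84 over all hours), and the ratio rose in 23 hairpins; fewer libraries enter these fits. With a linear term only, the slope of Cbr-Mir-2-P11_5p* was -0.0012 and the ratio slope of o4 0.13 (edgeR adjusted p 0.054). With each hour left out, the slope of Cbr-Mir-2-P11_5p* was -0.0065 to 0.0060 and never called, and the ratio slope of o4 was 0.11 to 0.16 and always called. The ratio amplitude of o4 was 0.87 at 6 h (edgeR adjusted p 0.13). With median-of-ratios size factors, the log2 difference of late against early hours was -0.29 for Cbr-Mir-2-o3_3p, -1.38 for Cbr-Mir-2-o4_3p and 0.16 for Cbr-Mir-2-P11_5p*. The causes of these shifts were not tested.

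The depth limits Cbr-Mir-2-o4_5p* most, which had 14 to 22 counts from 28 to 33 h. No paired analysis was possible because each hour holds 1 library.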
